A study of Schizosaccharomyces pombe with 6 samples.

Results

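The locus from smb1 to dhp1 is a 30 kb stretch of the left arm of chromosome I of fission yeast (Schizosaccharomyces pombe), I:3340000-3370000 in the array's coordinates. Its 5 members, of 4124 protein-coding genes measured, are smb1, rga2, cnt6, SPAC26A3.11 and dhp1. They were read through the 87 genomic probes centred in the stretch, of 42641 on the array. Of those 87, 85 carried no outlier flag on any array and gave the log2 values of the stretch. The stretch was chosen because the log2 ratio of Rad52 immunoprecipitate over input was lower there in rad3-deleted cells, so that difference is described here and not tested.

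The arrays form 2 groups. The rad3-deleted cdc25-22 strain had 3 arrays, and so did the cdc25-22 strain that kept rad3. All cells carried cdc25-22, a temperature-sensitive allele of the phosphatase that lets cells enter mitosis. All went through a block of 4 h at 36.5 °C and received 6 mM hydroxyurea on return to 25 °C, so no array shows an untreated or unsynchronised culture. Rad52 was immunoprecipitated from chromatin and hybridised in the green channel against input DNA in the red channel on every array, although the labels call the material total RNA. No array held a control immunoprecipitate, the dyes were never exchanged, and the labels do not say whether replicates came from separate cultures. Each slide held the array of 1 replicate number from each strain.

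The scanner files and the labels did not match. The files listed under replicates 1 and 2 of each strain equalled, on all 42641 probes, the columns that the deposited value table gives to the other strain under the same replicate number. Files were therefore taken as belonging to the sample whose column they equal. The file of cdc25-22 replicate 3 equalled no column (84 of 42641 probes within 0.001 log2) and was used as listed. Under this assignment 9, 10 and 9 of the 33 probes in rad3 were dim in both channels on the libraries taken as rad3-deleted, against 0, 0 and 0 on those taken as cdc25-22. With the files as listed, the difference over the 30 kb was 0.12 in place of -0.61. The differences below therefore hold only if the assignment by column is right.

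Median signals were 584 to 675 for the rad3-deleted and 580 to 1211 for the cdc25-22 immunoprecipitates, over backgrounds of 38.0 to 49.0. Input medians were 607.5 to 845 and 560.5 to 833.5, over 59.0 to 71.5. In the locus 58 of the 85 probes were well above background in both channels on all 6 arrays, and 0 spots were saturated. The dimmest channel was the input of rad3-deleted replicate 2, where 77.0% of all 87 locus probes, flagged ones included, were well above background.

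Rad52 is a mediator of homologous recombination that binds single-stranded DNA, and it gathers where broken or stalled replication forks are repaired. Hydroxyurea starves the forks of deoxynucleotides, and Rad3, the fission yeast counterpart of ATR, is the kinase that senses the stall, keeps forks stable and holds back later origins. Fission yeast origins lie mostly in A+T-rich intergenic DNA, and forks stalled by hydroxyurea stay close to the origins that fired. The locus itself is a gene-dense stretch of housekeeping functions: splicing (smb1), RNA decay and transcription termination (dhp1), and control of small GTPases (rga2, cnt6).

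The sequences of 2 intergenic stretches are shown because they separate the divergent gene pairs next to smb1 and within the lowest bin of the rad3-deleted profile, at the rga2 to cnt6 junction. The first lies almost wholly in the bin to the left of the smb1 bin, I:3346001-3347000, where the rad3-deleted mean was -0.47. Both were read from RefSeq (ASM294v3), plus strand, 5′ to 3′. The first covers I:3346886-3347003 (118 bp, 63.6% A+T) between the annotated starts of rpl1101 and smb1, and the second I:3352259-3352367 (109 bp, 62.4% A+T) between those of rga2 and cnt6. Capitals mark a match to HomolD (CAGTCACA), a promoter box of fission yeast ribosomal protein genes, searched on both strands. The match lies on the minus strand, the strand of rpl1101.
rpl1101-smb1: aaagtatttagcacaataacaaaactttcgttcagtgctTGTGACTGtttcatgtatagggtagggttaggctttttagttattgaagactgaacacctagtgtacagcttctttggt
rga2-cnt6: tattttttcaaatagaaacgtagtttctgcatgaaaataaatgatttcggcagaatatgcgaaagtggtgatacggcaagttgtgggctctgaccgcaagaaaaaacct
Of 5112 stretches of 118 bp directly upstream of annotated protein-coding genes, 2.37% held HomolD in either direction. In the second stretch the motif was not found (0 matches). No probe centre lay inside either stretch (0 in each), so the values below come from the genes on both sides.

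Over the whole 30 kb, the log2 ratio relative to the array median was -0.37, -0.62 and -0.80 in rad3-deleted replicates 1, 2 and 3, against 0.08, 0.02 and -0.07 in cdc25-22 replicates 1, 2 and 3. All 3 rad3-deleted arrays lay below all 3 cdc25-22 arrays, which sat at about the median of the genome. The means were -0.60 ± 0.21 and 0.01 ± 0.08 (SD, n = 3 each), a difference of -0.61. As a linear ratio, the rad3-deleted level was 65.6% of the cdc25-22 level. Within slides 1, 2 and 3, on each of which both strains were hybridised, the difference was -0.45, -0.64 and -0.73.

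The lower ratio came with a lower immunoprecipitate signal. Relative to each array's median, log2 immunoprecipitate signal over the 85 probes was -1.03, -1.17 and -1.49 in the rad3-deleted arrays, against -0.40, -0.58 and -0.71 in the cdc25-22 arrays, a difference of -0.67 with no overlap. Log2 input signal was -0.63, -0.57 and -0.63 in the rad3-deleted arrays and -0.47, -0.59 and -0.61 in the cdc25-22 arrays, a difference of -0.05. The input values of the strains overlapped. Input was thus below the array median in both strains, and the cdc25-22 immunoprecipitate lay about as far below it, which placed the cdc25-22 ratio near 0.

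**Figure D1:**
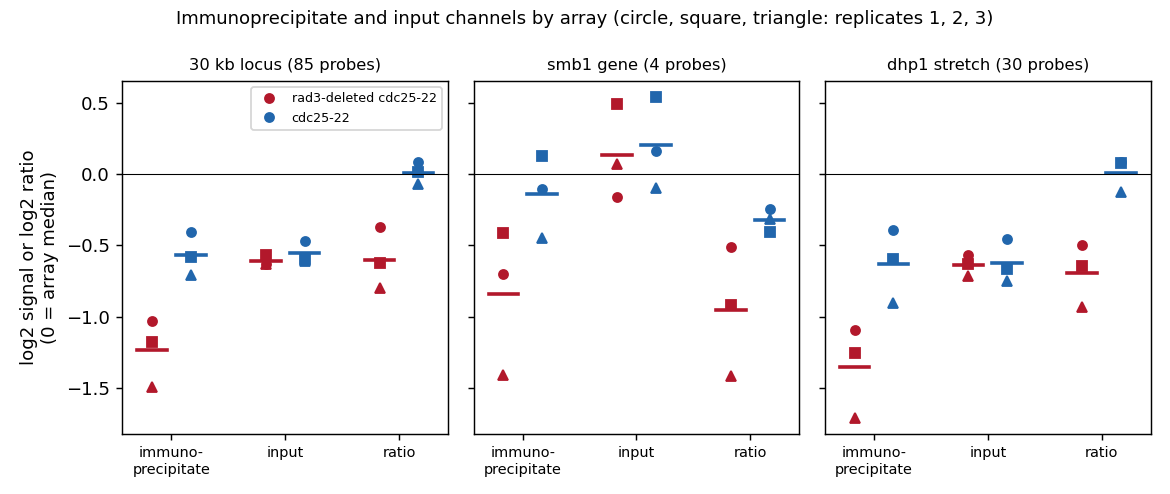
Log2 immunoprecipitate signal, log2 input signal and their log2 ratio, each relative to the array median, for the 30 kb locus, the smb1 gene and the dhp1 stretch (rad3-deleted in red at left, cdc25-22 in blue at right; points are arrays, bars are means of 3). In the 30 kb and in the dhp1 stretch the immunoprecipitate values of the strains do not overlap, with differences of -0.67 and -0.72, while the input values do.

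Of the 30 bins of 1 kb, 25 held at least 2 probes, and in all 25 the mean was lower in the rad3-deleted arrays. Bin differences ran from -0.85 to -0.34 with a median of -0.63, beside -0.04 over all 11891 bins of the genome. In 21 of the 25 bins all rad3-deleted arrays lay below all cdc25-22 arrays, which 17.0% of all bins did. In a limma fit over all bins (Benjamini-Hochberg at 0.05), 15 of the 25 were called lower and 0 higher, beside 3.33% and 11.9% of all bins. With the replicate number as a block, which pairs the arrays of a slide, 22 of the 25 were called lower, beside 6.53% of all bins. The locus was chosen on this contrast, so these counts describe it and support nothing. The count depended on single arrays. It was 6 without rad3-deleted replicate 2, 7 without cdc25-22 replicate 1 and 8 without cdc25-22 replicate 2. The share called lower over all bins fell as well, to 0.908%, 0.833% and 1.37%.

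The lower signal was spread over single probes. Of the 85 probes, 84 had the lower mean in the rad3-deleted arrays, beside 53.5% of all probes. In 45 of the 85 the strains did not overlap, beside 10.2% of all probes. The exception to the direction was a probe inside rga2 at I:3350177-3350236. It read -0.24, 0.07 and -0.53 in the rad3-deleted arrays, against 0.21, -0.99 and -0.17 in the cdc25-22 arrays, so its cdc25-22 values reached beyond the rad3-deleted ones on both sides.

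**Figure D2:**
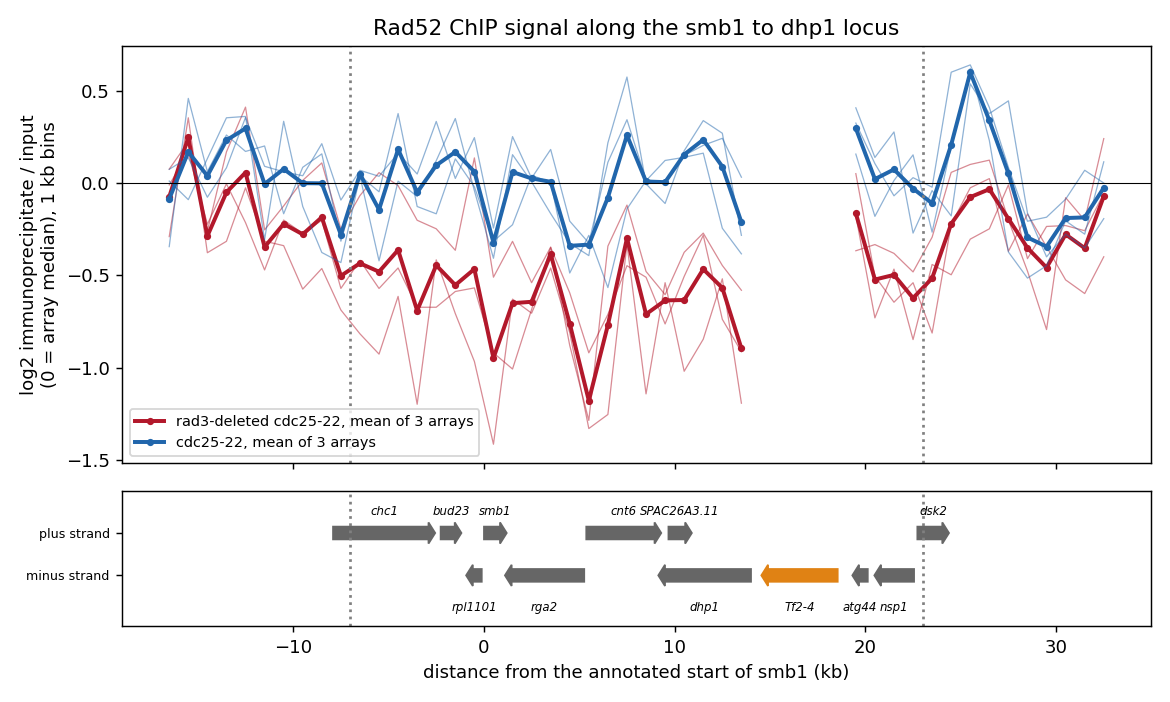
Log2 immunoprecipitate over input in 1 kb bins against distance from the annotated start of smb1 (rad3-deleted in red, cdc25-22 in blue; thin lines are single arrays, thick lines means of 3), with protein-coding genes by strand below and dotted lines at the ends of the locus. The mean rad3-deleted line lies below the mean cdc25-22 line in all 25 bins between the dotted lines, and the gap in both lines is Tf2-4, which carries 0 probes.

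Both strains dipped at the same places. Bin means ran from -1.18 to -0.16 in the rad3-deleted arrays and from -0.34 to 0.30 in the cdc25-22 arrays. Across the 25 bins the mean profiles of the strains correlated at r = 0.82. This is a description over bins that share their probes in both strains, and correlations between single arrays over the same bins were lower (0.24 to 0.68). Rad3-deleted replicate 3 was the lowest of all arrays in 16 of the 25 bins, and rad3-deleted replicate 1 the highest of its group in 21.

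The lowest bin of the rad3-deleted profile, I:3352001-3353000, contains the rga2 to cnt6 junction printed above. Its 3 probes averaged -1.29, -0.92 and -1.33 in the rad3-deleted arrays, against -0.32, -0.39 and -0.28 in the cdc25-22 arrays, a difference of -0.85 with wide separation. The second lowest is I:3347001-3348000, which holds the same 4 probes as smb1. At the other end of the range, the bin I:3366001-3367000 over atg44 read -0.37, -0.18 and 0.05 in the rad3-deleted arrays, against 0.33, 0.41 and 0.16 in the cdc25-22 arrays. In that bin the highest rad3-deleted array stayed below the lowest cdc25-22 array. The smallest difference of the locus lay elsewhere, at I:3341001-3342000 (-0.34), where the strains overlapped.

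The smb1 gene (SPAC26A3.08, I:3347004-3348195, plus strand) encodes the Sm core protein B, a subunit of the ring on which spliceosomal snRNPs are built. Its 4 probes averaged -0.51, -0.92 and -1.42 in the rad3-deleted arrays, against -0.24, -0.41 and -0.32 in the cdc25-22 arrays. The groups did not overlap, but the rad3-deleted values were spread far apart and the cdc25-22 values were themselves below the array median. Means were -0.95 ± 0.45 and -0.32 ± 0.08 (SD, n = 3 each), a difference of -0.63. Within slides 1, 2 and 3 the difference was -0.27, -0.51 and -1.10, so its size depended on the slide. Only 1 of the 4 probes had non-overlapping groups, beside 10.2% of all probes. Log2 immunoprecipitate signal was -0.70, -0.41 and -1.41 in the rad3-deleted arrays and -0.10, 0.13 and -0.45 in the cdc25-22 arrays, which overlap. The input difference was -0.07, with arrays of both strains on either side of the median.

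The dhp1 gene (SPAC26A3.12c, I:3356144-3361003, minus strand) encodes the nuclear exoribonuclease that degrades RNA from its 5′ end, the counterpart of budding yeast Rat1, which acts in transcription termination. Across its 16 probes the log2 ratio was -0.43, -0.64 and -0.87 in the rad3-deleted arrays, against 0.13, 0.08 and -0.07 in the cdc25-22 arrays. All rad3-deleted arrays were clearly lower. The means were -0.64 ± 0.22 and 0.04 ± 0.10 (SD, n = 3 each), a difference of -0.69, and the difference was -0.55, -0.72 and -0.80 within slides 1, 2 and 3. In 10 of the 16 probes the strains did not overlap, beside 10.2% of all probes.

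SPAC26A3.11 (I:3356677-3357902, plus strand), annotated as a mitochondrial omega-amidase, lies inside dhp1 on the opposite strand, and its 4 probes are also probes of dhp1. They averaged -0.35, -0.58 and -1.25 in the rad3-deleted arrays, against 0.00, 0.05 and 0.12 in the cdc25-22 arrays. In this stretch, chosen for a lower ratio, the difference of -0.79 was the lowest of the 4124 protein-coding genes with at least 2 probes. It was carried mostly by rad3-deleted replicate 3, with -0.35, -0.63 and -1.37 within slides 1, 2 and 3. ChIP fragments carry no strand, so the signal cannot be assigned to either gene of the pair.

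The GTPase regulators lie between smb1 and dhp1. cnt6 (SPAC26A3.10, I:3352368-3356297, plus strand) encodes a centaurin-type activator of Arf GTPases, which act in vesicle traffic. Its 13 probes averaged -0.55, -0.62 and -0.95 in the rad3-deleted arrays, against 0.08, 0.09 and -0.18 in the cdc25-22 arrays, a difference of -0.70. rga2 (SPAC26A3.09c, I:3348103-3352258, minus strand) encodes a GTPase-activating protein. Its 14 probes averaged -0.51, -0.67 and -0.70 in the rad3-deleted arrays, against 0.05, -0.07 and -0.12 in the cdc25-22 arrays, a difference of -0.58. In both genes the strains did not overlap, as in 21.9% of all genes. The rga2 difference was nearly the same on every slide, at -0.57, -0.60 and -0.58. The strains did not overlap in 10 of the 14 rga2 probes and in 5 of the 13 cnt6 probes, beside 10.2% of all probes.

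Over the 9 kb called the dhp1 stretch, I:3352001-3361000, which spans the end of rga2, cnt6, SPAC26A3.11 and nearly all of dhp1, 30 probes gave -0.50, -0.64 and -0.93 in the rad3-deleted arrays, against 0.09, 0.08 and -0.13 in the cdc25-22 arrays. The difference of means was -0.70, and in 16 of the 30 probes the strains did not overlap, beside 10.2% of all probes. Log2 immunoprecipitate signal was -1.09, -1.25 and -1.71 in the rad3-deleted arrays, against -0.39, -0.60 and -0.91 in the cdc25-22 arrays, again without overlap. Log2 input signal was -0.57, -0.63 and -0.72 in the rad3-deleted arrays and -0.46, -0.67 and -0.75 in the cdc25-22 arrays. The input difference was -0.01, inside the spread of either strain. It depended on the background correction: with normexp on the median signals it was -0.27, the immunoprecipitate difference -0.84 and the ratio difference -0.56.

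The window also overlaps 7 other protein-coding genes. On the left lie chc1, the clathrin heavy chain, bud23, a methyltransferase gene whose budding yeast counterpart acts on ribosomal RNA, and rpl1101, a protein of the large ribosomal subunit. Their differences were -0.48, -0.61 and -0.53. The strains were separated at bud23, while at chc1 and rpl1101 rad3-deleted replicate 1 read -0.09 and 0.14 and lay among the cdc25-22 arrays. On the right lie atg44, the mitofissin that divides mitochondria during mitophagy, nsp1, a nucleoporin, and dsk2, a ubiquitin-binding UBA domain protein that runs past the end of the window. Their differences were -0.60, -0.63 and -0.44, without overlap of the strains in any of the 3 genes, beside 21.9% of all genes.

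Of the 11 genes tested in this stretch, 9 were called lower by limma (adjusted over 4124 genes at 0.05), beside 5.12% of all genes. The 2 not called were chc1 and rpl1101. Without rad3-deleted replicate 2 the count was 4, and with the replicate block it was 10. The shares of all genes called under these settings are not given here. The locus also overlaps 15 annotated long non-coding RNAs, most of them antisense to the genes above. The 8 with at least 2 probes had differences of -0.81 to -0.47, and they share probes with the coding genes.

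**Figure D3:**
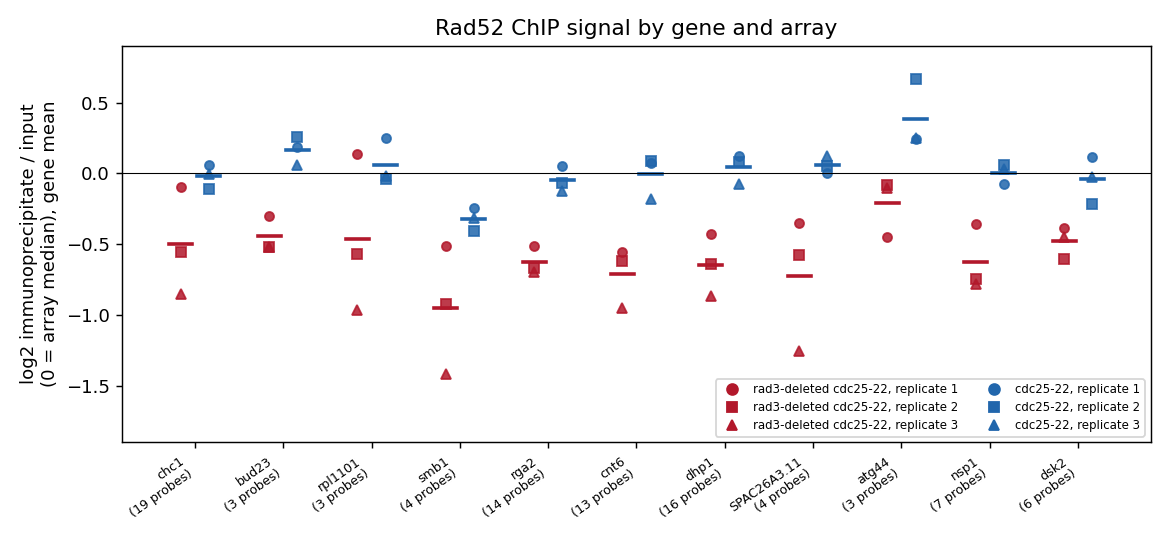
Mean log2 immunoprecipitate over input of the 11 measured protein-coding genes of the locus, in chromosomal order, with rad3-deleted arrays in red at left and cdc25-22 arrays in blue at right of each gene (circle, square and triangle are replicates 1, 2 and 3; bars are means of 3). The rad3-deleted mean is the lower one in all 11 genes, and smb1 is the gene whose cdc25-22 mean is lowest, at -0.32.

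The remaining gene is Tf2-4 (SPAC26A3.13c, I:3361547-3365548, minus strand), a copy of the LTR retrotransposon Tf2, which carries 0 probes and leaves 5 bins unmeasured. The 14 probes beyond it read -0.40, -0.57 and -0.44 in the rad3-deleted arrays, against 0.08, 0.12 and 0.04 in the cdc25-22 arrays, a difference of -0.55. The lower signal was thus present on both sides of the element. Left of smb1, 23 probes read -0.09, -0.56 and -0.82 in the rad3-deleted arrays, against 0.13, -0.02 and 0.03 in the cdc25-22 arrays, a difference of -0.54.

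Differences were smaller just outside the window than just inside it, but stayed below 0. Just inside the left edge, the bin I:3340001-3341000 differed by -0.48, and just outside it I:3339001-3340000 differed by -0.22. Just inside the right edge, I:3369001-3370000 differed by -0.59, and just outside it I:3370001-3371000 differed by -0.41. The lower signal ran on to the right: with a threshold of -0.3 chosen after the values were seen, consecutive measured bins from I:3340001 to I:3374000 (29 bins over 34 kb) were all at or below it. This was the longest such run in the genome, which the choice of the locus favoured, followed by 21 bins on chromosome II (II:1818001-1839000, mean difference -0.51).

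In the 10 kb before the locus, 34 probes read 0.02, -0.19 and -0.30 in the rad3-deleted arrays, against 0.10, 0.02 and 0.06 in the cdc25-22 arrays, a difference of -0.21. The groups overlapped only through rad3-deleted replicate 1. In the 10 kb after it, 35 probes read -0.16, -0.28 and -0.34 in the rad3-deleted arrays, against 0.14, -0.02 and -0.11 in the cdc25-22 arrays, a difference of -0.26 without overlap. The highest cdc25-22 bin near the locus was the one at I:3372001-3373000, which read 0.10, -0.30 and -0.03 in the rad3-deleted arrays, against 0.64, 0.54 and 0.62 in the cdc25-22 arrays.

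To place the stretch in the genome, 408 windows of 30 kb with at least 40 probes were cut on a grid set by the edges of the locus. The locus was chosen for its lower ratio in rad3-deleted cells. Its low ranks for ratio, difference and immunoprecipitate were therefore favoured in advance, and they describe it and support nothing. The locus had the lowest log2 ratio of all 408 on each rad3-deleted array, with -0.37, -0.62 and -0.80 beside -0.30, -0.50 and -0.68 for the next window on that array. On the cdc25-22 arrays it ranked 356, 230 and 95 from the lowest of the 408, so it was among the higher windows in replicate 1 and among the lower ones in replicate 3. Windows varied more in the rad3-deleted arrays (SD 0.19, 0.24 and 0.30) than in the cdc25-22 arrays (SD 0.05, 0.08 and 0.07). The difference of -0.61 was the lowest of all windows, the next being -0.47, the median 0.02 and the highest 1.35. The immunoprecipitate difference also ranked 1, whereas the input difference ranked 127 of 408. Input itself was low at the locus on every array, with ranks from the lowest of 1, 8 and 1 in the rad3-deleted arrays and 9, 3 and 1 in the cdc25-22 arrays. Its part in the ratio was not tested.

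The base composition of the stretch was also at the edge of the genome's range. Mean A+T share around the probes was 61.2%, beside 63.9% for all probes placed on the reference, and only 1 of the 348 windows placed on the reference lay below it. That window differed by 0.07. The locus held 0 A+T-rich islands (merged 500 bp windows of at least 75% A+T), beside 428 in the genome or 1.02 per 30 kb. The nearest ones lay 18.8 kb to the left and 34.2 kb to the right of the window. The gap of 83.0 kb between them was the 14th widest of 425, beside a median gap of 21.4 kb.

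Windows without an island ranged widely. The 127 other placed windows without one differed by -0.47 to 0.41 with a median of -0.06, and the 220 with one had a median of 0.06. Across the 348 windows A+T share and difference correlated at r = 0.60, a description over windows measured on the same 6 arrays. Removing the trend of each array's log2 ratio on A+T share left a difference of -0.56 for the locus, -0.65 for the dhp1 stretch and -0.52 for smb1. Position within genes moved with the difference too. Of the locus probes 95.3% lay inside protein-coding genes, beside 78.3% of all placed probes. The 81 inside averaged -0.62, beside -0.02 for all such probes, and the 4 outside averaged -0.48, beside 0.31.

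**Figure D4:**
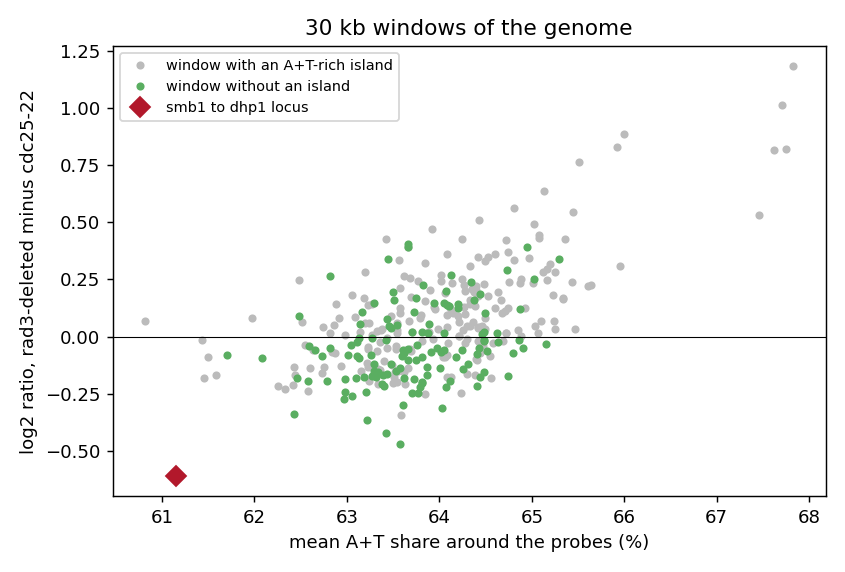
Difference in log2 ratio, rad3-deleted minus cdc25-22, against mean A+T share around the probes for the 348 windows of 30 kb placed on the reference (grey, windows with an A+T-rich island; green, without; red diamond, the locus). The locus, chosen for its lower ratio, is the lowest point at -0.61 and the second from the left at 61.2%.

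Genes that act with the members were read from 3 lists, with calls set beside 5.12% of all genes called lower and 10.8% called higher. Of the Sm ring, 4 of 7 genes had enough probes, and smb1 was the only one called (1 of 4). The others were smd3 at -0.14, sme1 at -0.20 and smf1 at -0.24. Of dhp1 and the genes that act with it in transcript end formation and decay, 8 of 9 were measured; dhp1 was called lower and dis2, a protein phosphatase 1 catalytic subunit, was called higher at 0.56. Of the Arf GAPs 4 of 5 were measured, with cnt6 called lower and ucp3 called higher at 0.79. The members smb1, dhp1 and cnt6 were chosen on this contrast, so their calls support nothing. Outside the locus 0, 0 and 0 genes of these lists were called lower, and 0, 1 and 1 higher. Their median differences outside the locus were -0.20, -0.02 and -0.12, beside -0.06 over all 4124 genes.

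The genes whose 6 array values were most like those of smb1, by root mean square difference in log2 ratio, were ufd1 of the Hrd1 ubiquitin ligase complex (0.21), ckn1, of the ERCC8 DNA repair family (0.22), and dpp2, a dipeptidyl peptidase (0.22). For dhp1 they were ccq1, a subunit of the telomere-binding shelterin (0.07), mdl1, a peptide-transporting ATPase (0.08), and SPBC428.15, an Obg-like ATPase (0.10). ccq1 read -0.39, -0.58 and -0.89 in the rad3-deleted arrays, against 0.05, -0.06 and -0.07 in the cdc25-22 arrays. Within slides 1, 2 and 3 it differed by -0.44, -0.51 and -0.82, beside -0.55, -0.72 and -0.80 at dhp1. mdl1 lies at II:1828456-1831050, inside the second longest run of lower bins. All these genes were picked for values like those of smb1 or dhp1 on the same arrays, so their lower ratios follow from that choice.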

How the data were processed

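Spot intensity values were made by the authors with Agilent Feature Extraction 10.7.3.1, per the submitters' processing notes. Per the file headers, the processed intensity was background-subtracted and dye-corrected, slides 1 and 2 were read with a CGH protocol and slide 3 with a ChIP protocol, and the array's genome version is an older one than the reference used here. The value table deposited by the authors gives a linear ratio of green over red processed signal, found by setting its columns against the scanner files, and was an alternative.

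Green over red processed signal was taken as a log2 ratio and centred on the median of each array's genomic probes. Outlier-flagged probes (2555 of 42641) were left out. Bins of 1 kb and protein-coding genes needed at least 2 probes. limma 3.58.1 (R 4.3.3; checked on simulated data) was fitted over all bins and over all genes with a mean per strain, at a Benjamini-Hochberg threshold of 0.05. Other values came from Python 3.11.15 with numpy 2.4.6 and pandas 2.3.3, and plots from matplotlib 3.10.9.

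Array positions were set against ASM294v3 by sliding them up to 7000 bp and keeping the offset at which G+C share varied least among probes. At the locus that offset was 0 bp (SD 3.20 against a median of 7.63 percentage points over all offsets), and no probe sequence was aligned. Each slide held both strains under the same replicate number, and same-numbered arrays deviated together over all bins (r = 0.28, 0.20 and 0.18), so the numbers pair the arrays. p-values measure only the spread between these arrays, and their number limits the precision.

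Genes named were the 5 members, every annotated gene overlapping the window, the 3 genes most like smb1 and dhp1, and called or measured members of 3 pathway lists; a further list is not reported here. The members and lists were chosen with earlier results of these data known. Alternatives covered file assignment, value source, background correction, normalization, scaling, probe filters, A+T trend, bin size, single arrays, slide and replicate block.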

Additional observations from a re-analysis of the deposited data

How the results depend on the processing

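The locus and dhp1 stretch differences, with values of -0.61 and -0.70, stayed below 0 under every alternative run except the files as listed. The smb1 difference of -0.63 stayed below 0 under all of them, but was near 0 with the files as listed. With the files as listed, the locus was at 0.12, the dhp1 stretch at 0.17 and smb1 at -0.11. In the locus 0 of 25 bins were then called lower, beside 0.0% of all bins. Immunoprecipitate differences then were 0.059 at smb1 and 0.19 at the dhp1 stretch, and input differences 0.18 and 0.034. The smb1 difference was -0.27 within slide 1 and -1.10 within slide 3, and -0.50 without dim probes. With 1 spread (MAD) for all arrays, the locus, dhp1 stretch and smb1 differences were -0.54, -0.62 and -0.39. Input differences changed sign under several settings: at smb1 0.17 within slide 3, at the dhp1 stretch 0.0060 with 1 spread (MAD) for all arrays, 0.023 without dim probes, 0.038 and 0.0325 within slides 2 and 3. After normexp background correction the input difference of the dhp1 stretch was -0.27. The cause was not tested.

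Leaving out each array in turn gave -0.72 to -0.51 for the locus, -0.80 to -0.58 for the dhp1 stretch, -0.85 to -0.39 for smb1, -0.92 to -0.42 for its immunoprecipitate, -0.86 to -0.54 for that of the dhp1 stretch, -0.25 to 0.10 and -0.0745 to 0.071 for their inputs, 6 to 22 bins called lower and 4 to 11 genes. With the replicate number as a block, 22 bins were called lower in place of 15, the differences of means are the same by construction, and no direction changed. The value table gave 5 bins, beside 0.664% of all bins, and at least 4 probes per bin gave 9 of the 11 bins left, beside 4.44%. With single arrays left out, 0.833% to 7.16% of all bins were called lower. Over all bins 1816 were called, and 946 at an adjusted p of 0.01. Dim spots limit single probes: 58 of 85 were well above background throughout.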

Other observations

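Tf2-4 is 1 of 13 annotated Tf2 elements, 9 of which had 5 kb flanks that could be placed on the reference. The difference over both flanks of Tf2-4 was -0.63, the lowest of the 9, and 5 of the 9 were below 0. The Tf2-4 flanks lie almost wholly in the locus, which was chosen for its lower ratio. That rank was therefore favoured in advance and supports nothing. Their median was -0.03 and the highest was 0.71, at Tf2-11. No probe lay inside any of these 9 elements.

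In the deposited value table the column of cdc25-22 replicate 3, which equals no scanner file, read -0.25 over the 30 kb, -0.47 at smb1 and -0.31 over the dhp1 stretch. The file listed for that sample read -0.07, -0.32 and -0.13.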
